A study of Caenorhabditis elegans with 11 samples.

Results

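Antisense small RNA was compared, gene by gene, between dissected gonads of cup-4 mutant and wild-type Caenorhabditis elegans. The 6 libraries are the small RNA libraries of a series of 11, and both strains were sampled as day-one adults. The cup-4 group holds 3 libraries of strain RB950, with the genotype cup-4(ok837), and the wild-type group holds 3 libraries of strain N2. The allele ok837 is a deletion carried by the whole animal, and the labels name no other allele or agent. Each batch, 1 to 3, gave 1 library per genotype, and the labels call the replicates biological. Of 46904 gene rows, 31750 had at least 1 antisense read and 13336 were abundant enough to be tested.

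The gene cup-4 encodes a subunit of the family of ligand-gated ion channels and is needed for uptake of material from the body cavity by coelomocytes, the worm's scavenger cells. In the C. elegans germline most antisense small RNAs are 22G RNAs. These are made by RNA-dependent RNA polymerases on messenger RNA templates and are loaded onto Argonaute proteins, some of which silence their targets and one of which, CSR-1, is known for marking expressed germline genes. Triggers for this amplification include piRNAs, 26G RNAs bound by ERGO-1 or ALG-3/4, and double-stranded RNA imported from other tissues. A count of antisense reads is therefore not a measure of how much of a gene's transcript is present. Read-length limits are not given, so the counts need not be of 22G RNAs alone.

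Gene counts summed to 14858199 to 22054138 reads in cup-4 libraries and to 18632432 to 39310540 in wild type. Values below are CPM, counts scaled to a common library total by the trimmed mean of M-values (TMM), and each fold change divides cup-4 by wild type. A gene was called when the adjusted p of edgeR's quasi-likelihood test, with batch in the model, was under 0.05. For antisense small RNA, edgeR without a named setting means this fit, with TMM scaling and a filter on low counts. Antisense reads on cup-4 itself numbered 2 in all cup-4 libraries and 9 in all wild-type libraries, too few to test or to check the genotype. Its mRNA, which was measured in separate libraries, stood at 1.20, 1.17 and 0.859 CPM in cup-4 gonads and at 4.60 and 3.44 CPM in the wild-type libraries of replicates 2 and 3, lower in the mutant as the genotype labels would have it. Wild-type mRNA of replicate 1 was not analysed here. Wild-type replicate 3 stood apart in its most abundant genes. Ribosomal RNA genes held 5.12% of its gene counts, against 0.484% to 1.21% in the other 5 libraries, and the 10 most abundant genes held 19.2%, against 9.41% to 13.6%. The noncoding gene F31C3.14 alone stood at 57218 CPM there, against 11658 to 22067 CPM elsewhere, and F31C3.16 at 56972.5 CPM, against 1122 to 20949 CPM. The coelomocyte genes unc-122, cup-2 and cup-5 were tested and not called, while lgc-26 was too low to test. Of the genes known for making gametes or yolk, every meiosis gene listed (35 of 35) had enough antisense reads to be tested. In bulk gonads, fewer cells of a type and less small RNA per cell cannot be told apart.

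Antisense small RNA was higher in cup-4 gonads for 189 genes and lower for 74. The 263 called genes were 1.97% of those tested. The higher genes were 1.42% and the lower genes 0.555%. At an unadjusted p under 0.05 the split was nearly even, with 1879 genes higher and 1608 lower. Changes were mostly moderate: the median log2 fold change of called genes was 0.93 for the higher and -0.83 for the lower set, and 80 higher and 26 lower genes passed an absolute log2 fold change of 1. Added together, the higher genes held 47734, 40752 and 41307 CPM in cup-4 replicates 1, 2 and 3, against 27105, 25307 and 21818 CPM in wild type. The lower genes held 8546, 7972 and 7679 CPM in cup-4 and 16197, 15403 and 16151 CPM in wild type. These sums describe genes chosen for their difference and are no test. All 263 had the same sign in the 3 batches, as did 51.6% of all tested genes, and the CPM of the genotypes did not overlap for 247 of them. Among all tested genes 15.8% were higher and 14.8% lower without overlap.

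**Figure D1:**
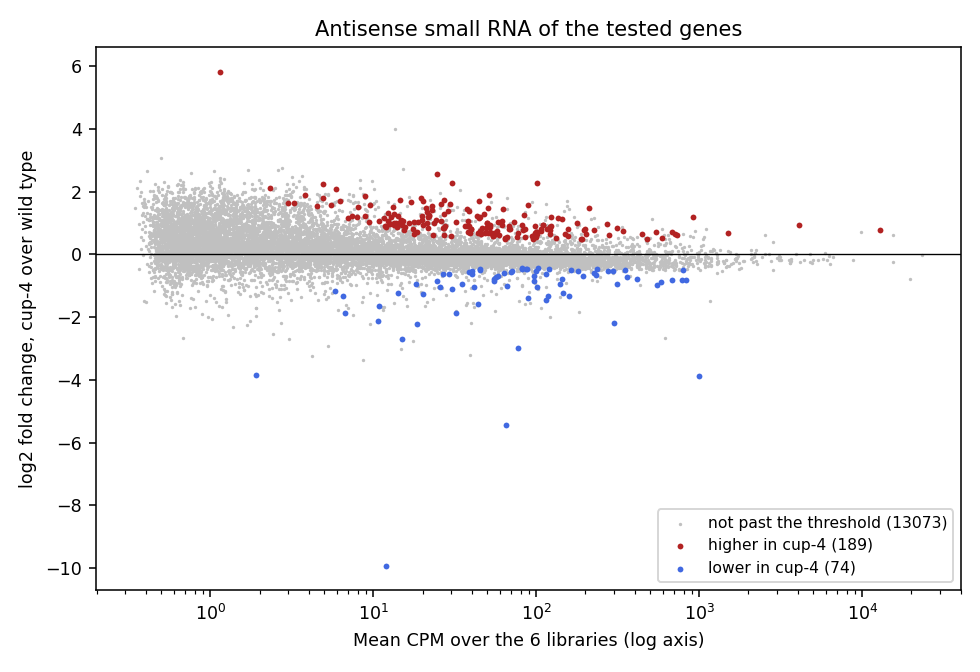
Each point is 1 of 13336 tested genes, with its mean CPM over the 6 libraries on a log axis and its fitted log2 fold change (cup-4 over wild type) on the other axis. Red points are the 189 genes called higher, blue points the 74 called lower and grey points the rest; most red points lie between 10 and 1000 CPM, and the few genes past -3 are all blue or grey.

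The number of calls rested on batch 3. With the cup-4 or the wild-type library of replicate 3 left out no gene passed in edgeR, although 2269 and 2413 genes kept an unadjusted p under 0.05. In the fit with batch, leaving out 1 library also takes its partner out of the comparison. Leaving out replicate 2 gave 10 higher and 13 lower when its cup-4 library was dropped, and 37 higher and 15 lower when its wild-type library was. Without replicate 1 the counts were larger, at 392 higher and 259 lower without the cup-4 library and 421 higher and 268 lower without the wild-type library. With total counts as scaling 1046 genes were higher and 117 lower. Higher genes then made up 89.9% of the calls, against 71.9% with TMM, and the median over all tested genes was 0.12 on the log2 scale, against 0.010. Medians below are to be read against that shift.

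The direction of change differed with abundance. Genes with little antisense small RNA leaned higher in cup-4 gonads and genes with much of it leaned slightly lower, while most called genes lay in between. The ranges were set by the mean CPM over both genotypes. Below 1 CPM, 2095 genes were tested and none was called by edgeR or by DESeq2, with 295 higher and 19 lower at an unadjusted p under 0.05. Other settings of edgeR did call some of these 2095 genes, with 91 higher and 1 lower under total counts and 118 higher and 3 lower with no filter. Genes that only the fit with no filter tests are not in these counts. The median log2 fold change of the 2095 genes was 0.45, and the median log2 ratios within batches 1, 2 and 3 were 0.40, 0.18 and 0.19. From 1 to 10 CPM, 19 of 4314 genes were called higher and 4 lower, and the median was 0.26. From 10 to 100 CPM, 127 of 5050 genes were called higher and 40 lower, which is 3.31% of the range, while the median of the whole range was -0.069. At an unadjusted p under 0.05 that range had 502 genes higher and 830 lower, and with no filter 377 were called higher and 394 lower. From 100 to 1000 CPM, 40 of 1756 genes were called higher and 29 lower, or 3.93%, with a median of -0.15. The balance in that range was the other way in DESeq2, at 109 higher and 351 lower, and at an unadjusted p under 0.05, at 155 higher and 593 lower. At 1000 CPM and over, 3 of 121 genes were called higher and 1 lower, and the median was -0.16. There DESeq2 called 11 higher and 27 lower.

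The spread between replicates followed the same axis. Below 1 CPM the median standard deviation of log2 CPM was 0.27 in cup-4 and 0.30 in wild type, and from 100 to 1000 CPM it was 0.10 in cup-4 and 0.11 in wild type. The smallest absolute log2 fold change among called genes was 1.02 from 1 to 10 CPM and 0.44 from 10 to 100 CPM. Shares of gene counts were taken over all gene rows, tested or not. The 35655 rows below 1 CPM, of which 2095 were tested, held 0.351%, 0.360% and 0.332% in cup-4 libraries and 0.218%, 0.290% and 0.243% in wild type. For the 4322 rows of 1 to 10 CPM, of which 4314 were tested, the share was 1.77%, 1.78% and 1.67% in cup-4 and 1.31%, 1.52% and 1.31% in wild type. In both ranges every cup-4 library lay above every wild-type library, which gives the smallest p that 3 against 3 libraries allow (exact two-sided permutation test, p = 0.1, adjusted 0.475 over 19 shares). Under total counts the median of the 10 to 100 CPM range turned to 0.042. Without cup-4 replicate 3 the median at 1000 CPM and over was -0.091, and without cup-4 replicate 1 that of 10 to 100 CPM was -0.046.

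**Figure D2:**
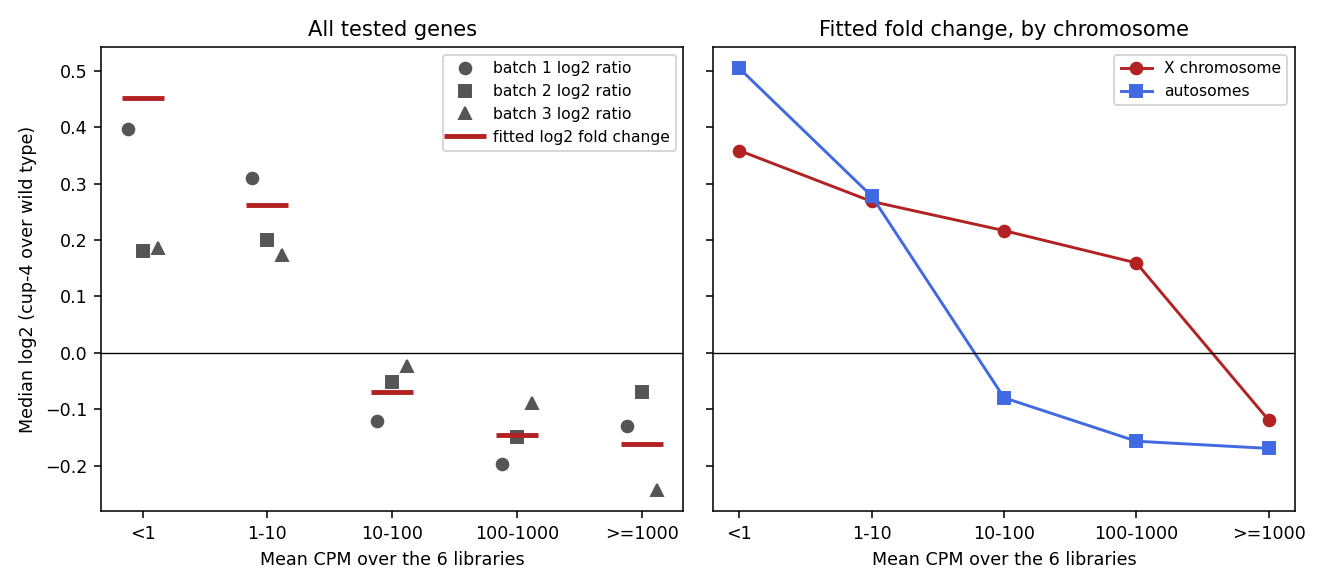
Left, the median log2 fold change (cup-4 over wild type) of the tested genes in 5 ranges of mean CPM, as fitted (bar) and as the log2 ratio within each of the 3 batches (points). Right, the fitted medians of genes on the X chromosome and on the autosomes; from 10 to 100 CPM they are 0.22 and -0.080.

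By chromosome, calls on the X were nearly all higher. Of 1343 tested genes on the X, 45 were called higher and 3 lower, or 3.57%, against 117 higher and 66 lower among 10971 autosomal genes. The X carries few genes expressed in the germline of hermaphrodites and is largely silent there until oogenesis. Its median log2 fold change was 0.25 and its batch medians were 0.29, 0.24 and 0.17. Of the X genes 1009 were above 0. Summed over the chromosome, antisense small RNA was 60054, 60234 and 56988 CPM in cup-4 libraries and 53308, 52930.4 and 55813 CPM in wild type, without overlap. Much of that difference lay at linc-22, with 5306, 5155 and 5652 CPM in cup-4 and 2806, 3265 and 2483 CPM in wild type. Without that gene the sums overlapped. At 1000 CPM and over, 3 of 11 X genes were above 0, with a median of -0.12, and 22 of 85 autosomal genes, with a median of -0.17. Most X calls were of moderately targeted genes: from 10 to 100 CPM, 36 of 312 X genes were called higher and 1 lower, with a median of 0.22, against 77 higher and 36 lower of 4498 autosomal genes, with a median of -0.080. From 1 to 10 CPM the medians were 0.27 on the X and 0.28 on the autosomes. The X median ranged from 0.25 to 0.33 when 1 library was left out, and was 0.37 under total counts. X calls numbered 26 higher and 2 lower without batch in the model and 89 higher and 13 lower in DESeq2. With no filter on low counts there were 161 higher and 35 lower. Lower calls were also more frequent without replicate 1, at 74 higher and 27 lower with its cup-4 library left out and 77 higher and 27 lower with its wild-type library left out. Calls numbered 1 higher and 1 lower when cup-4 replicate 2 was left out, 3 higher and 1 lower when its wild-type partner was, and 0 without either library of replicate 3.

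The X-linked genes called higher had varied roles, and those described next were chosen after their values were seen. For ipla-2, a phospholipase gene, antisense small RNA was 64.9, 82.6 and 73.9 CPM in cup-4 libraries, against 32.8, 26.1 and 21.5 CPM in wild type (log2 fold change 1.48, SE 0.172, edgeR adjusted p 0.0338). The dystroglycan gene dgn-1, whose product links cells to the extracellular matrix, had 84.1, 62.4 and 57.9 CPM in cup-4 and 38.8, 32.9 and 34.7 CPM in wild type (log2 fold change 0.93, SE 0.0971, edgeR adjusted p 0.0211). For jmjd-3.2, which belongs to the family of JmjC histone demethylases, the values were 156, 107 and 112 CPM in cup-4 and 87.9, 69.5 and 71.2 CPM in wild type. The genotypes did not overlap for any of these 3 genes. In the other direction, dot-1.2, of the DOT1 family of histone methyltransferases, had 120.2, 74.8 and 69.6 CPM in cup-4 and 249.6, 155 and 205 CPM in wild type (log2 fold change -1.22, SE 0.123, edgeR adjusted p 0.0211). The other 2 X-linked genes called lower were the short noncoding genes M02F4.12 and F38E9.10.

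On chromosome III, which carries cup-4 at III:7866489-7868737, 14 genes were called higher and 21 lower among 2081 tested. These are 1.68% of its genes, near the 1.97% of all tested genes. The balance depended on the setting: it was 17 higher and 18 lower with a mean count of 50 or more, and under total counts most calls were higher and 27 lower. The median was -0.066, turning to 0.046 under total counts. The lower genes were spread along the chromosome: 4 of 367 tested genes lay within 1 Mb of cup-4, 1 of 338 from 1 to 2 Mb away, 9 of 670 from 2 to 4 Mb and 7 of 706 from 4 to 8 Mb. The 4 nearest were F10E9.2, hrpk-2, lpd-7 and rpl-6. At hrpk-2, related to the RNA-binding protein hnRNP K, antisense small RNA was 234, 222 and 222 CPM in cup-4 and 321, 339 and 316 CPM in wild type. At lpd-7 it was 157, 141 and 141 CPM in cup-4 and 244, 205 and 186 CPM in wild type. Farther away, pan-1, which encodes a leucine-rich repeat transmembrane protein, had 409, 422 and 390.0 CPM in cup-4 and 775, 857 and 619.8 CPM in wild type (log2 fold change -0.87, SE 0.0983, edgeR adjusted p 0.0228). The homeobox gene ceh-43 had 27.9, 30.5 and 22.8 CPM in cup-4 and 45.1, 62.9 and 57.8 CPM in wild type. None of these passed without either library of replicate 3, where no gene did.

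Calls were next counted by gene class. Protein-coding genes made up 139 of the higher and 64 of the lower calls, 1.80% of the 11284 tested. Of 68 long noncoding RNA (lncRNA) genes 12 were higher and 1 was lower, or 19.1%. Noncoding RNA genes of other kinds gave 11 higher and 3 lower of 531 (2.64%), and genes with no entry in the annotation 27 higher and 5 lower of 1022 (3.13%). Among snoRNA genes 1 of 106 was lower (0.943%). Of all tested genes 1.97% were called, 1.42% higher and 0.555% lower. Of 232 piRNA genes none was called in edgeR, with 13 higher and 15 lower at an unadjusted p under 0.05 and 1 higher and 3 lower in DESeq2. Other edgeR settings called 4 higher and 1 lower under total counts and 1 higher without batch in the model. With no filter 6 of 5365 piRNA genes were higher and 8 lower. The reads at piRNA genes are those antisense to the annotated piRNA, so they do not measure piRNA abundance.

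**Figure D3:**
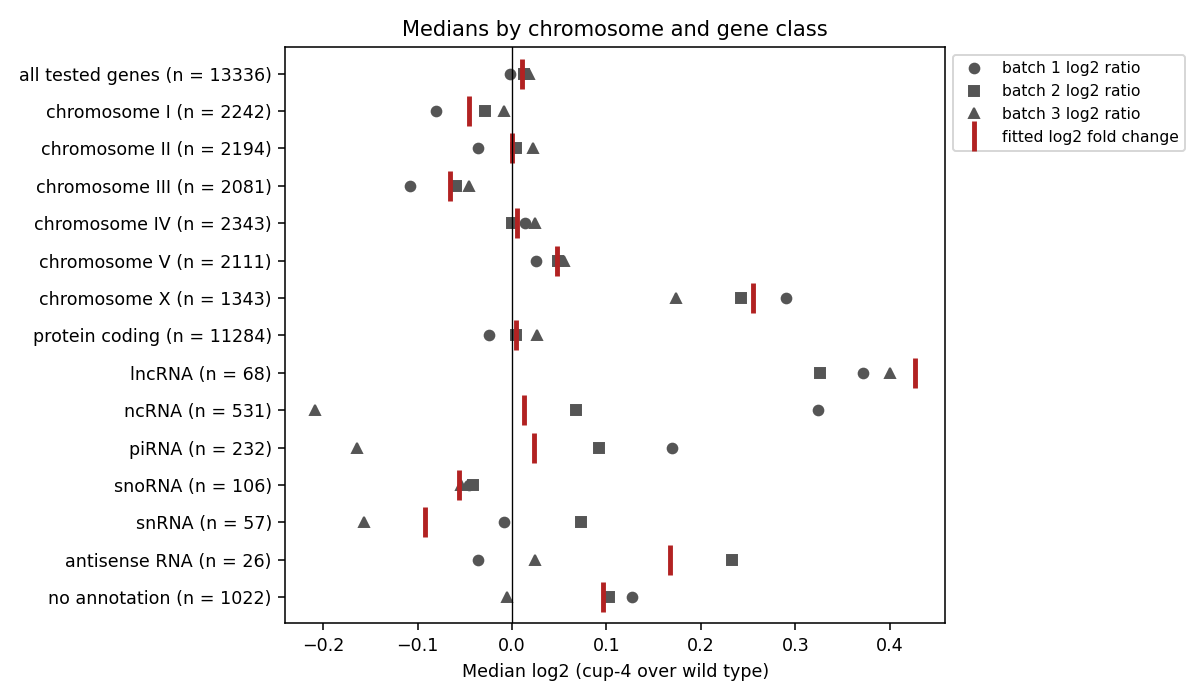
Median log2 (cup-4 over wild type) of the tested genes of each chromosome and gene class, with the number of genes in parentheses; bars are the fitted medians and the 3 grey symbols are the medians within batches. The X chromosome and the lncRNA genes lie right of 0 in every batch, whereas the batches of ncRNA and piRNA genes fall on both sides of 0.

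Among lncRNA genes the median log2 fold change was 0.43, with batch medians of 0.37, 0.33 and 0.40, and 53 of 68 were above 0. The lean was uneven. From the lowest to the highest of the 5 CPM ranges the lncRNA medians were 0.42, 0.62, 0.073, 0.64 and 0.0037, over 15, 20, 19, 9 and 5 genes. For the other tested genes the medians were 0.45, 0.26, -0.070, -0.15 and -0.17. The share of gene counts at all 185 lncRNA rows, tested or not, was 2.83% ± 0.108 in cup-4 and 2.32% ± 0.155 in wild type (SD, n = 3 each), without overlap (exact two-sided permutation test, p = 0.1, adjusted 0.475 over 19 shares). The linc genes are long intergenic noncoding RNAs, most of them of unknown function. The most heavily targeted called gene of this class was linc-22 (X:9069138-9073735), with 5306, 5155 and 5652 CPM in cup-4 and 2806, 3265 and 2483 CPM in wild type, or 5371 ± 255 against 2851 ± 393 CPM. Its log2 fold change was 0.92 (SE 0.127, edgeR adjusted p 0.0366). Below it, linc-8 had 712, 848 and 1016 CPM in cup-4 and 420.1, 630.0 and 622 CPM in wild type, and F39E9.10 had 781, 638 and 665 CPM in cup-4 and 522, 461 and 454 CPM in wild type.

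Some called lncRNA genes were neighbours called in the same direction, in a class with 12 calls higher and 1 lower. On chromosome IV, linc-41 and linc-21 lie 320 bases apart. There linc-41 stood at 226, 204 and 161 CPM in cup-4 and 94.1, 102 and 76.5 CPM in wild type, and linc-21 at 129.97, 153 and 144 CPM in cup-4 and 61.0, 95.6 and 70.9 CPM in wild type. On chromosome III, linc-19 and linc-45 lie 456 bases apart, with log2 fold changes of 0.83 and 1.00. Over all classes, 14 pairs of called genes lay within 10000 bases of each other, of which 9 were called in the same direction and 5 in opposite directions. Of all called genes 71.9% were higher, so a shared direction is not read as unusual. The single lncRNA gene called lower, linc-42 (III:2936109-2937002), had 3.27, 4.56 and 3.92 CPM in cup-4 and 21.8, 15.6 and 14.5 CPM in wild type (log2 fold change -2.12, SE 0.229, edgeR adjusted p 0.0216). The lncRNA calls numbered 5 higher and 1 lower without batch in the model, 21 higher and 2 lower in DESeq2, 3 higher with wild-type replicate 2 left out, and 0 with cup-4 replicate 2 or either library of replicate 3 left out. The class median was 0.23 with no filter on low counts.

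The genes with the largest increases were next examined one by one. Of called genes with a mean of at least 10 CPM, the strongest was fezf-1 (IV:13466097-13469399), a zinc-finger transcription factor gene known for neuronal development. It had 35.3, 37.3 and 52.9 CPM in cup-4 libraries, against 7.24, 7.95 and 5.68 CPM in wild type, or 41.8 ± 9.60 against 6.96 ± 1.16 CPM (SD, n = 3 each) (log2 fold change 2.57, SE 0.229, edgeR adjusted p 0.0211). Every cup-4 library exceeded every wild-type library several times over. The gene kal-1 (I:14128591-14142207), a homolog of human anosmin, which acts in neuronal branching and migration, had 55.1, 50.5 and 44.7 CPM in cup-4 and 12.6, 8.28 and 10.7 CPM in wild type (log2 fold change 2.27, SE 0.137, edgeR adjusted p 0.00780). At egl-8 (V:20818-43704), which encodes a phospholipase C beta of neuronal and intestinal signalling, antisense small RNA was 118, 66.7 and 60.6 CPM in cup-4 and 23.3, 18.7 and 21.5 CPM in wild type (log2 fold change 1.89, SE 0.174, edgeR adjusted p 0.0211). Here cup-4 replicate 1 lay above the other cup-4 libraries, and the genotypes did not overlap, a condition for naming the gene. The remaining genes of the 10 with the largest increases were C08F11.7, epic-2, the zinc transporter gene ttm-1, ctg-1, ZC190.7, ZC204.14 and K09H9.8, with log2 fold changes of 2.28 for C08F11.7 down to 1.60 for K09H9.8. Below 10 CPM the unnamed gene WBGene00016873, picked after its values were seen, was also called higher, at 2.26 ± 0.720 CPM in cup-4 and 0.0349 ± 0.0303 CPM in wild type (SD, n = 3 each), a level near 0 against which no fold is given. By position, egl-8, ctg-1 and ZC190.7 overlap another annotated gene each, and reads of such regions may belong to either. The same holds for F16A11.6, linc-22 and C36A4.11 among the abundant higher genes, and for ugt-22, T05G5.4, haf-6, R10F2.5, col-71, ads-1 and osm-3 among the lower genes described further on.

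Among abundant targets, 5 genes carried the highest levels of the higher set. F16A11.6 (I:9379946-9380095), a short noncoding gene inside the phosphatase subunit gene ppfr-1, had 20072, 14141 and 14407 CPM in cup-4 and 11920.2, 9629 and 7078 CPM in wild type (log2 fold change 0.78, SE 0.127, edgeR adjusted p 0.0490). It lies close to the threshold, failing without batch in the model (adjusted p 0.126) and with RLE size factors (0.0559). Y47H10A.5 (I:12095482-12097987) had 1205, 1124 and 1452 CPM in cup-4 and 485, 580.4 and 595 CPM in wild type (log2 fold change 1.18, SE 0.104, edgeR adjusted p 0.0171), so that its lowest cup-4 library was well above its highest wild-type library. The unnamed gene WBGene00045366 had 2418, 1575 and 1564 CPM in cup-4 and 1303, 1091 and 1026 CPM in wild type. The remaining 2 of the 5 were linc-22, described above, and C36A4.11, an ERGO-1 target.

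The largest decrease was at M02F4.12 (X:3035964-3036111), a short noncoding gene. It had 0, 1 and 0 reads in cup-4 libraries and 812, 501 and 337 reads in wild type. Corrected for library size, wild type held 1148 times as much as cup-4, with a 95% interval of 206 to 45367 that covers counting error only. Next came ugt-22 (IV:13639260-13644402), which encodes a UDP-glucuronosyltransferase, an enzyme class that conjugates small molecules for removal. It had 2.34, 4.49 and 2.19 CPM in cup-4 and 116, 124 and 139 CPM in wild type, or 3.01 ± 1.29 against 127 ± 12.0 CPM (log2 fold change -5.45, SE 0.268, edgeR adjusted p 0.0108). The unnamed gene WBGene00007376 had 96.8, 144 and 144 CPM in cup-4 and 1892, 1848 and 1882 CPM in wild type (log2 fold change -3.89, SE 0.157, edgeR adjusted p 0.00357). For each of these genes the genotypes were far apart, and for WBGene00007376 the 3 wild-type libraries were nearly equal.

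The 593 bases between C08F11.7 and ugt-22 separate a gene called higher from one called lower. C08F11.7 (IV:13637275-13638666) had 201, 179 and 121 CPM in cup-4 and 40.6, 29.6 and 31.6 CPM in wild type (log2 fold change 2.28, SE 0.138, edgeR adjusted p 0.00824). Other opposite pairs within 10000 bases were lin-59 and glh-4, F59G1.10 and F59G1.8, F39G3.2 and tig-2, and ZC190.7 and ZC190.10, with the higher gene first in each.

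Further decreases were at genes of varied roles. T05G5.4 (III:9748934-9749673) had the smallest adjusted p of all genes, 0.00231 in edgeR, with 19.9, 13.4 and 19.1 CPM in cup-4 and 153, 123 and 133 CPM in wild type (log2 fold change -2.98, SE 0.104). The neuropeptide gene nlp-40 (I:11495-16837), whose product is released by the intestine in the defecation rhythm, had 7.30, 3.26 and 2.36 CPM in cup-4 and 30.8, 25.2 and 20.95 CPM in wild type (log2 fold change -2.70, SE 0.241, edgeR adjusted p 0.0173). For haf-6 (I:1162880-1175809), a half-molecule ABC transporter gene needed for efficient RNA interference, the values were 6.31, 6.64 and 6.83 CPM in cup-4 and 29.9, 30.7 and 31.3 CPM in wild type (log2 fold change -2.21, SE 0.109, edgeR adjusted p 0.00423). Both genotypes were tight around their means there. The gene osgn-1 (IV:4207388-4218265), an ortholog of human oxidative stress induced growth inhibitors, had 14.8, 12.6 and 13.8 CPM in cup-4 and 54.9, 46.3 and 49.6 CPM in wild type (log2 fold change -1.87, SE 0.0861, edgeR adjusted p 0.00372). T16H12.2, linc-42 and R10F2.5 complete the 10 largest decreases, with log2 fold changes of -2.19, -2.12 and -1.64.

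Among abundant targets with less antisense small RNA, beside WBGene00007376, were col-71, glh-4, ads-1 and osm-3. The cuticle collagen gene col-71 had 646, 622 and 539.8 CPM in cup-4 and 982, 1021 and 1184 CPM in wild type (log2 fold change -0.82, SE 0.123, edgeR adjusted p 0.0418). The kinesin gene osm-3, which works in sensory cilia, had 519, 524 and 437 CPM in cup-4 and 880.2, 789.8 and 928 CPM in wild type (log2 fold change -0.81, SE 0.115, edgeR adjusted p 0.0386). For ads-1, which encodes an enzyme of ether lipid synthesis, the values were 514, 630.3 and 538 CPM in cup-4 and 776, 1057 and 1206 CPM in wild type. The P-granule helicase gene glh-4 had 641, 634 and 677 CPM in cup-4 and 902, 938 and 933 CPM in wild type (log2 fold change -0.51, SE 0.0787, edgeR adjusted p 0.0449). In all 4 the genotypes did not overlap, which was a condition for naming them. In other edgeR settings glh-4 failed under total counts (adjusted p 0.0615) and ads-1 without batch in the model (0.0686). Testing only genes with a mean count of 50 or more, col-71 (0.0544), glh-4 (0.0513) and ads-1 (0.0593) failed as well.

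**Figure D4:**
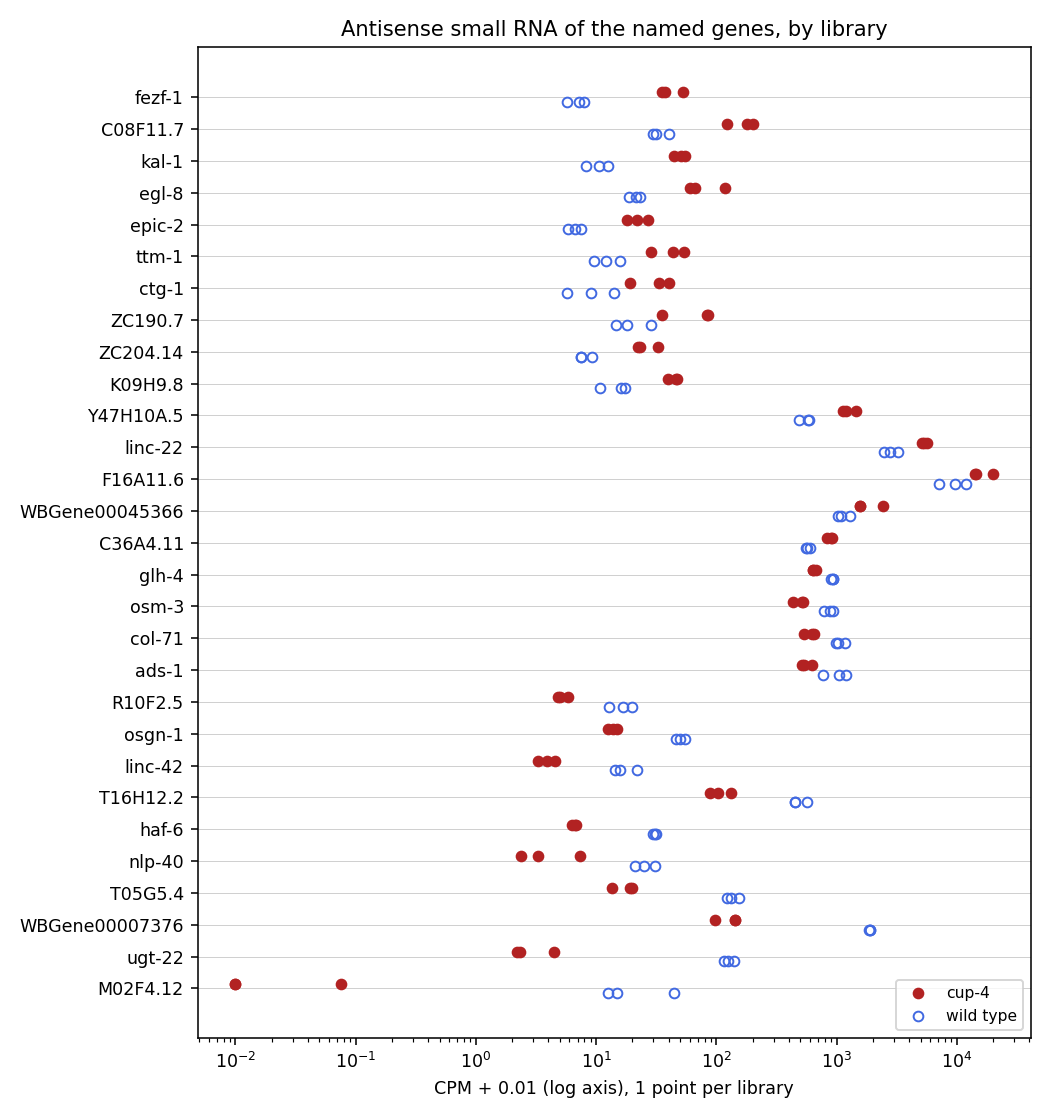
CPM of each library (with 0.01 added, log axis) for the 29 genes named by rule, from the largest increases at the top to the largest decreases at the bottom. Filled red points are the 3 cup-4 libraries and open blue points the 3 wild-type libraries; the genotypes do not overlap for any of the 29, a condition of the rule.

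Of these 29 genes, 24 passed without batch in the model and all 29 in DESeq2 and limma-voom. With cup-4 replicate 2 left out it was 10, with its wild-type partner left out 16, and with either library of replicate 3 left out 0, with adjusted p-values of up to 0.162 for ugt-22 and 0.229 for WBGene00045366. The log2 fold change of fezf-1 ranged from 2.25 to 2.75 over all alternatives, that of ugt-22 from -5.82 to -5.17 and that of haf-6 from -2.24 to -2.10.

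The mRNA of the same genes was set beside their antisense small RNA. Of 12861 genes tested in mRNA none was called in edgeR (0.0%), with 2209 at an unadjusted p under 0.05, 192 higher and 7 lower with batch in the model, and 747 higher and 319 lower in DESeq2. Of the 29 genes 24 were tested in mRNA, and the genotypes overlapped for 10 of them. In 6 genes the mRNA lay apart in the direction opposite to the antisense small RNA, and in 8 genes it lay apart in the same direction. How many of all genes tested in mRNA lie apart was not counted, so neither number is read as unusual. Opposite were C08F11.7, with 11.9, 16.5 and 8.76 CPM of mRNA in cup-4 and 103 and 126 CPM in wild type, and ugt-22, with 236, 62.2 and 98.8 CPM in cup-4 and 29.8 and 15.7 CPM in wild type. WBGene00007376 was also opposite, with 10.9, 9.06 and 11.0 CPM of mRNA in cup-4 and 2.36 and 2.10 CPM in wild type. In the same direction were haf-6, with 33.8, 24.6 and 41.1 CPM of mRNA in cup-4 and 108 and 199 CPM in wild type, and Y47H10A.5, with 11.2, 4.75 and 21.5 CPM in cup-4 and 1.30 and 0.364 CPM in wild type. None of these mRNA differences passed in edgeR with genotype alone, where the smallest adjusted p was 0.122. With batch in the edgeR model C08F11.7, haf-6, WBGene00007376 and ads-1 passed, with adjusted p-values of 0.0180, 0.0180, 0.0477 and 0.0276. In DESeq2 these 4 passed too, as did ugt-22 (adjusted p 0.000925), Y47H10A.5 (9.51e-05), epic-2 and osgn-1.

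Genes of the small RNA pathways, themselves taken as targets, mostly had small negative log2 fold changes, few of which passed the test. Of 20 tested Argonaute genes 7 were above 0 and the median was -0.18, of 32 genes of small RNA synthesis 5 were above 0 with a median of -0.12, and of 18 genes of nuclear RNA interference and RNA transport 3 were above 0 with a median of -0.19. These compare with 0.010 for all tested genes and -0.15 for genes of 100 to 1000 CPM. No Argonaute gene was called in edgeR, with 2 higher and 6 lower at an unadjusted p under 0.05 and 3 lower in DESeq2. No synthesis gene was called either, with 1 higher and 9 lower unadjusted and 4 lower in DESeq2. With no filter edgeR called 1 Argonaute gene higher and 2 lower, and 3 synthesis genes lower. The Argonaute gene ppw-2 had 427, 408 and 448 CPM in cup-4 and 563, 632 and 569 CPM in wild type, with an edgeR adjusted p of 0.0758. For csr-1 the genotypes overlapped, at 558, 577 and 736 CPM in cup-4 and 838, 815 and 667 CPM in wild type. In the list of germ granule genes 4 of 19 were above 0 and the median was -0.26. Of this list glh-4 alone was called, or 5.26%, beside 0.555% of all tested genes called lower. The list had 1 higher and 10 lower at an unadjusted p under 0.05 and 8 lower in DESeq2. A relative of glh-4, glh-1, had 276, 276 and 284 CPM in cup-4 and 361, 437 and 411 CPM in wild type and an edgeR adjusted p of 0.0514. Among the RNA transport genes haf-6 was called, and the double-stranded RNA importer gene sid-1 was not, with 568, 603 and 551 CPM in cup-4 and 665, 619.6 and 776 CPM in wild type.

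Known targets of ERGO-1, an Argonaute whose 26G RNAs start silencing of duplicated genes and others, leaned the other way. Of 13 listed targets 5 were found and tested, and all 5 were above 0, with a median of 0.61 and batch medians of 0.61, 0.65 and 0.58. C36A4.11 (III:3840579-3841248) was called, with 916, 896 and 828 CPM in cup-4 and 602, 570.0 and 555 CPM in wild type (log2 fold change 0.61, SE 0.0775, edgeR adjusted p 0.0320). K02E2.6 had 1029, 1040.0 and 1169 CPM in cup-4 and 673, 793 and 737 CPM in wild type, just past the threshold on the other side (edgeR adjusted p 0.0505). E01G4.5 varied by batch, at 801, 324 and 184 CPM in cup-4 and 446, 132 and 133 CPM in wild type, and was above wild type within each batch. For fbxb-97 the values were close, at 1596, 1505 and 1552 CPM in cup-4 and 1562, 1368 and 1381 CPM in wild type. In DESeq2 4 of the 5 passed, and without any 1 library of replicate 2 or 3 none passed in edgeR.

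Families were described in the same way. Ribosomal protein genes mostly had negative log2 fold changes: 2 of 78 were above 0 and the median was -0.33. Called lower were rpl-6, rpl-43 and rps-2, or 3.85% beside 0.555% of all tested genes. Without batch in the model 1 was called lower. In sum the 78 genes held 2142, 1955 and 2058 CPM in cup-4 and 3033, 2259.6 and 2524 CPM in wild type. Of 33 proteasome subunit genes 0 were above 0, with a median of -0.26. None was called in edgeR, with 21 lower at an unadjusted p under 0.05 and 7 lower in DESeq2. With no filter edgeR called 11 proteasome genes lower. Both medians kept their sign under total counts, at -0.22 and -0.15. F-box genes, whose products select proteins for degradation, gave 7 higher calls of 200, or 3.5% beside 1.42% of all tested genes, and a median of 0.32. The largest was fbxa-43, at a log2 fold change of 1.79, and the others were fbxa-61, fbxa-115, fbxa-169, fbxa-170, fbxa-184 and fbxc-18. F-box calls numbered 3 higher without batch in the model, and 0 with any 1 library of replicate 2 or 3 left out. Nuclear hormone receptor genes gave 2 higher calls of 116, nhr-3 and nhr-84, or 1.72%, near that of all tested genes, and a median of 0.35. Histone genes gave none of 59 in edgeR, with 10 lower at an unadjusted p under 0.05 and 1 lower in DESeq2. With no filter edgeR called 5 of 64 histone genes lower. The median of the 59, at -0.10, turned to 0.0070 under total counts. Collagen genes gave 2 lower calls of 35, col-71 and col-97, or 5.71% beside 0.555% of all tested genes. Their median of -0.17 changed sign without cup-4 replicate 3 (0.052). Reads shared by near-identical copies make values in the histone, major sperm protein and collagen families uncertain gene by gene.

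Genes of particular cell types were examined last. Meiosis genes, which act in pairing and recombination, had log2 fold changes close below 0, with 1 of 35 above 0 and a median of -0.18. None was called in edgeR, with 16 lower at an unadjusted p under 0.05 and 10 lower in DESeq2. Other edgeR settings called 2 lower without batch in the model, 1 with RLE size factors and 13 with no filter, but none under total counts. Summed over the list the meiosis genes had 3841, 3733 and 4009.8 CPM in cup-4 and 4861, 4747 and 4456 CPM in wild type. Germline stem cell genes had a median of -0.12 with 1 of 13 above 0, which was -0.069 without cup-4 replicate 1 and -0.18 without wild-type replicate 3. Beside both lists, all tested genes of 100 to 1000 CPM had a median of -0.15, and those of 10 to 100 CPM one of -0.069. Of autosomal genes 19.5% and 32.3% were above 0 in these ranges. Oocyte genes had a median of -0.051 that turned to 0.061 under total counts, and 0 of 17 passed in edgeR, in DESeq2 or at an unadjusted p under 0.05.

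Sperm genes, most of them weakly targeted, leaned higher: 14 of 16 were above 0, with a median of 1.12. The 23 tested genes of the major sperm protein family were all above 0, with a median of 1.26. No gene of either group was called in edgeR, with 7 and 8 higher at an unadjusted p under 0.05 and 3 and 2 higher in DESeq2. Other edgeR settings did call genes higher, with 4 and 5 under total counts, and 6 of 16 and 9 of 31 with no filter. Batches disagreed in size, the batch medians being 1.27, 0.23 and 0.52 for the sperm genes and 1.36, 0.36 and 0.89 for the major sperm protein genes. Without the cup-4 or the wild-type library of replicate 1 the medians were 0.68 and 0.68 for the sperm genes and 0.74 and 0.69 for the family. The summed level of the sperm genes was 146, 141 and 114 CPM in cup-4 and 102, 118.7 and 112 CPM in wild type, so that single libraries overlapped. For the major sperm protein family it was 72.6, 66.2 and 47.6 CPM in cup-4 and 18.4, 50.9 and 25.5 CPM in wild type. These sums also overlapped, and 7 of the 23 genes were higher without overlap, beside 15.8% of all tested genes. Restricted to genes with a mean count of 50 or more, the median of the sperm genes was 0.14.

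Intestinal genes had low levels and mostly positive log2 fold changes. Of 13 tested genes 12 were above 0, beside 69.6% of autosomal genes of 1 to 10 CPM. The median of the 13 was 1.01, with batch medians of 0.71, 0.71 and 0.86. Of the 13 genes 2 were called, both higher, or 15.4%, beside 1.42% of all tested genes called higher. The yolk protein gene vit-2 had 14.5, 10.8 and 7.47 CPM in cup-4 and 6.97, 4.94 and 2.84 CPM in wild type (log2 fold change 1.19, SE 0.165, edgeR adjusted p 0.0376), and vit-6 had 31.8, 20.1 and 15.0 CPM in cup-4 and 12.8, 10.3 and 8.92 CPM in wild type (log2 fold change 1.01, SE 0.147, edgeR adjusted p 0.0396). Summed over the 19 listed genes, levels were 95.8, 73.5 and 59.3 CPM in cup-4 and 48.3, 42.7 and 32.9 CPM in wild type, without overlap. None of the 19 was at 0 in all libraries, and ges-1, elt-2, elt-7, ifb-2, act-5 and mtl-2 were too low to test. The part of intestinal RNA in the higher genes of low abundance was not tested. Among neuronal genes 1 of 12 was called, or 8.33%, beside 0.555% of all tested genes called lower. It was the carboxypeptidase E gene egl-21, which matures neuropeptides, with 44.96, 71.1 and 35.7 CPM in cup-4 and 131, 134 and 119.2 CPM in wild type (log2 fold change -1.40, SE 0.173, edgeR adjusted p 0.0390). Of 8 body muscle, 5 hypodermis and 5 sheath or spermatheca genes none was called in edgeR or in DESeq2, with 1 higher and 1 lower muscle gene and 1 lower hypodermis gene at an unadjusted p under 0.05. None of vit-2, vit-6 and egl-21 passed without batch in the model or without either library of replicate 3. The yolk genes also failed with either library of replicate 2 left out, and egl-21 with either library of replicate 1 left out.

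**Figure D5:**
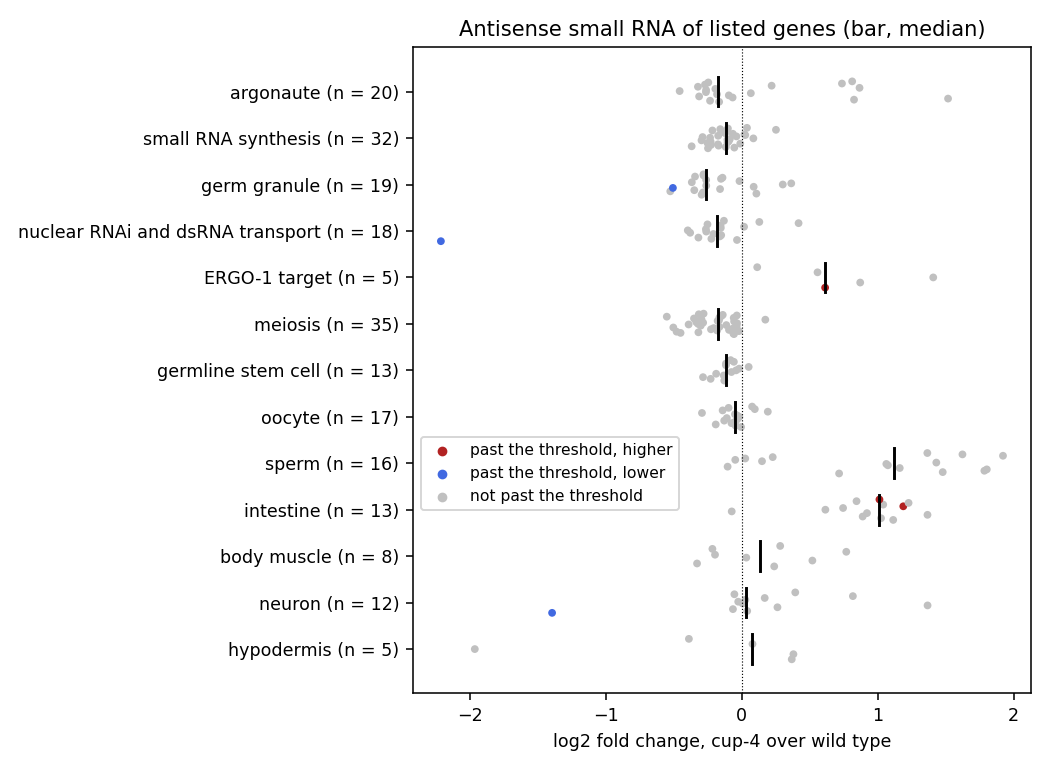
Fitted log2 fold change (cup-4 over wild type) of each tested gene in 13 lists, with the number of genes in parentheses and the median as a black bar. Red points passed the threshold as higher, blue points as lower and grey points did not pass; the meiosis and germ granule points lie mostly left of 0 and the sperm, intestine and ERGO-1 target points mostly right of it.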

How the data were processed

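Small RNA libraries of gonads (3 cup-4, 3 wild type) were analysed, with mRNA libraries (3 cup-4, 2 wild type) as a second readout. The authors' deposited values are raw counts per gene and library, neither normalised nor pooled; per the labels, small RNA reads were counted where antisense to a gene. The submitters' processing notes name the build ce11 and the tools FastQC, cutadapt, HISAT2, HTSeq and DESeq2, without versions; read-length limits and the letters TAP in the column names are not explained. Summary rows of the counting step (44.0% to 49.1% of reads) were left out. The summary row of multiply aligned reads was empty, so how such reads were treated is not known. Replicates that share a number share a batch per the labels, so batch entered the model. Deviations of same-batch libraries from their genotype means correlated at 0.08, 0.09 and 0.15. Those of libraries from different batches correlated at -0.20 to 0.09, so some were as high as in same-batch pairs.

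The counts were tested in R 4.3.3 with edgeR 4.0.16 (TMM, filterByExpr, glmQLFit with robust estimation, glmQLFTest, Benjamini-Hochberg adjustment over all tested genes). Tested genes held 99.81% to 99.89% of gene counts. The filter can be passed through 1 genotype alone. SE was taken as the size of the log2 fold change over the root of F. Within-batch log2 ratios add 0.5 CPM. mRNA was fitted with genotype alone. Single values were compared with exact two-sided permutation tests, which cannot give a p under 0.1. Alternatives were no batch term, DESeq2 1.42.0, limma-voom (limma 3.58.1), scaling by RLE or by total counts, TMM computed without the 50 most abundant genes, testing every gene with a read, testing only genes with a mean count of 50 or more, a threshold of 0.1, and leaving out each library. The procedure was tested on simulated data.

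Symbols matched 44017 identifiers. Classes and positions come from RefSeq on WBcel235, the assembly that ce11 names, which gives no strand here, so overlaps are by position. A symbol's pattern set the families. All replicate pairs differed by more than sampling noise (chi-square over its degrees of freedom 17.8 to 216). The members and lists were chosen with earlier results of these data known. The naming rule took, per direction, the 10 largest changes among called genes with at least 10 CPM and no overlap, and the 5 most abundant called genes with no overlap; genes named beyond it were chosen from lists or after their values were seen. Depth, here 14858199 to 39310540 gene counts a library, covers counting error only.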

Additional observations from a re-analysis of the deposited data

Results flagged for a closer look

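Outside the gene counts, reads that aligned but fell antisense to no gene took a larger share in cup-4 libraries. They made up 32.7%, 31.7% and 27.6% of all reads in cup-4 replicates 1, 2 and 3, with a mean of 30.7%, against 27.01%, 27.1% and 25.004% in wild type, with a mean of 26.4%. Of aligned reads alone they were 36.9% in cup-4 and 32.2% in wild type. The genotypes did not overlap in either measure, which gives the smallest p that 3 against 3 libraries allow (exact two-sided permutation test, p = 0.1). What these reads are was not tested, and the row was used in no comparison of genes.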

How the results depend on the processing

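No gene named by rule reversed its call. Some set medians changed sign under other scaling, such as that of 10 to 100 CPM, at -0.069 with TMM and 0.042 under total counts. The balance of calls from 100 to 1000 CPM turned from 40 higher and 29 lower to 109 higher and 351 lower in DESeq2. The model without the replicate block, in which batch pairing is ignored, called 149 genes, 45 of them lower, and shared 124 with the 263 of the model with batch. The calls numbered 1277 in DESeq2 (633 lower), 1163 under total counts (117 lower), 2175 with no filter (896 lower) and 1013 at a threshold of 0.1 (454 lower). Leaving out 1 library gave 0 to 689 calls, 0 to 268 of them lower, and 0 for either library of replicate 3; each such fit has 1 residual degree of freedom, and the partner of the missing library adds nothing to the comparison. limma-voom, RLE size factors, TMM without the 50 most abundant genes and a mean count of at least 50 gave counts within 1.5 times of 263 and of its 74 lower genes. The 29 genes named by rule kept their direction in all 406 refits and lost their call in 106. Set medians moved by more than the spread between batches in 121 of 699 refits, and total counts raised them by about the shift of all genes. The cause was not tested. The median standard error of a log2 fold change was 0.45 below 1 CPM and 0.085 from 100 to 1000 CPM.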
